A study of Mus musculus with 2 samples.

Results

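Accessible DNA was described at 10 genes of Bergmann glia and astrocytes in mouse cerebellum, out of 21829 protein-coding genes annotated on the mouse assembly mm10. The set is a list of names, grouped by what the genes are known for: the glutamate transporters Slc1a2 and Slc1a3, glutamine synthetase Glul, the Bergmann glia genes Gdf10, Hopx and Fabp7, the connexins Gja1 and Gjb6, the water channel Aqp4 and the intermediate filament Gfap. No peak or footprint value enters the rule for membership. DNase-seq maps where the nuclease DNase I cuts chromatin of isolated nuclei, and dense cutting marks open regulatory DNA. The tissue was whole cerebellum of 2 male B6CASTF1/J mice aged 36 days, F1 hybrids of the strains C57BL/6J and CAST, with no treatment given in the labels. Both animals form 1 group with 1 library each, numbered replicates 1 and 2. The labels name them as separate males but under 1 donor entry, and differences between them may be partly technical. The design holds no comparison between groups, and all values below are descriptions with no test.

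Bergmann glia are the radial astrocytes of the cerebellar cortex, whose processes wrap the synapses onto Purkinje cells. They and the other astrocytes take up glutamate through the transporters encoded by Slc1a3 (GLAST) and Slc1a2 (GLT-1), and glutamine synthetase turns the glutamate into glutamine that is passed back to neurons. Connexins couple the glial cells to each other, and aquaporin 4 sits in the end-feet that astrocytes place on blood vessels. Granule neurons make up most cells of the cerebellum, so glia are a minority of the nuclei in such a sample.

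Replicate 1 had 140127 peaks and 342409 footprints, short protected stretches inside open DNA, and replicate 2 had 114404 peaks and 262603 footprints. Peak height, the signal deposited for each peak, was compared by its percentile within one animal, because the heights of the 2 libraries are not on a stated common scale. Markers of granule cells had a promoter peak at 7 of 7 genes in both animals, and their median promoter height stood at percentiles 65.8 and 66.8 in replicates 1 and 2. Purkinje cell markers had one at 5 of 7 genes in both animals. Peaks also stood at 4 and 3 of 7 oligodendrocyte markers, at 5 and 2 of 7 endothelial markers and at 1 of 7 microglial markers in both. Of 7 genes of tissues that cerebellum should lack, 2 and 1 had a peak. The order of replicates 1 and 2 is kept for every pair of values below.

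A promoter was taken as 1 kb on each side of every protein-coding transcript start. All 10 glial genes had a promoter peak in replicate 1, where 67.0% of all protein-coding genes had one. In replicate 2 the count was 9 of 10, with Gfap lacking a peak, against 63.5% of all genes. Peaks in both animals were found at 9 of the 10 genes and at 62.9% of all genes. The peaks were low. Among the genes with a promoter peak, the highest promoter peaks of the 10 genes had a median height of 0.856 and 0.968, against 9.10 and 6.65 for all such genes. Their median percentile was 12.5 and 13.0. In a whole tissue, fewer cells of a type and less accessibility per cell cannot be told apart. The count depends on how low a peak may be: with only peaks above each animal's median height, 5 of the 10 genes had one in each animal, against 57.6% of all genes as a mean of both. These 5 were Glul, Slc1a2, Fabp7, Hopx and Slc1a3. In the authors' smaller, stricter list, 7 of the 10 had one in each animal, against 61.3% of all genes as a mean of both. The genes missing from it were Gjb6, Aqp4 and Gfap in replicate 1 and Gdf10, Gjb6 and Gfap in replicate 2.

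**Figure D1:**
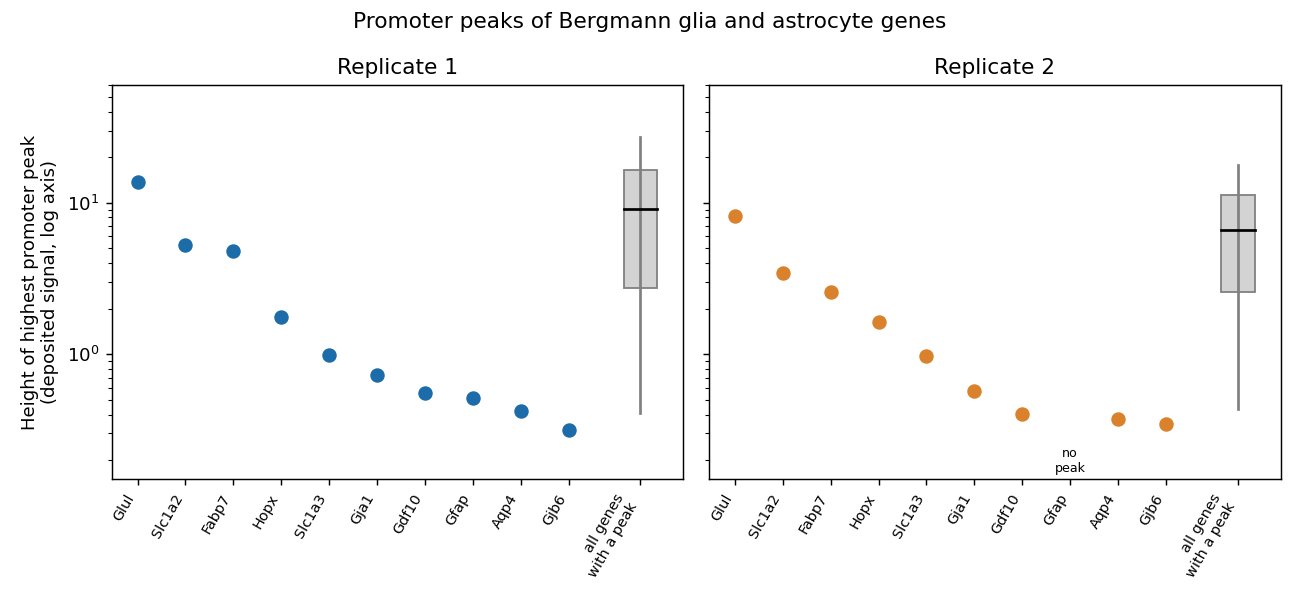
Height of the highest promoter peak (deposited signal, log axis) of each glial gene, with replicate 1 on the left and replicate 2 on the right, beside all genes with a promoter peak (box: 25th to 75th percentile, black line: median, whisker: 5th to 95th percentile). Glul was the only one of the 10 genes above the median of all genes, which was 9.10 and 6.65, and Gfap had no promoter peak in replicate 2.

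The glutamate genes held places among the upper 5 of the 10 promoter heights. Glul had the highest promoter peak of the 10, with heights of 13.8 and 8.23, or percentiles 66.8 and 59.1. It lay just upstream of the first start, on chromosome 1, and held 6 and 7 footprints. The same peak also fell within the promoter window of the neighbouring gene Teddm2, so it cannot be credited to Glul alone. Slc1a2, the main glutamate transporter of forebrain astrocytes, followed with heights of 5.25 and 3.42, or percentiles 35.1 and 30.2. Slc1a3, the transporter that marks Bergmann glia, had lower peaks of 0.986 and 0.968, at percentiles 14.2 and 13.0. Within each animal, then, the promoter of Slc1a2 ranked above that of Slc1a3 and below that of Glul.

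The open start of Slc1a2 was not the one in the RefSeq table used here. Slc1a2 lies on the plus strand of chromosome 2 and has 6 distinct protein-coding starts. Peaks clustered at the first, at position 102658659, and at the second, at 102659281, where 1828 and 1744 bp around the first start passed a false discovery rate of 0.05. The RefSeq promoter table places the start at 102706438, 47.8 kb downstream of the first, shared there by 2 GENCODE transcripts. No peak lay within 1 kb of that start in either animal, and 0 bp around it passed a false discovery rate of 0.05 in either. Another open place, 632 bp upstream of the last start at 102761173, had a peak of 0.650 in replicate 1 and none in replicate 2.

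Part of the Glul promoter peak is shown because it was the strongest promoter of the set. The stretch ends before the transcribed bases, which the peak also covers. It runs along the gene's direction, at chr1:153899701-153899928 on the plus strand of mm10, and capitals mark bases that lay in a footprint in both animals. The bases are the C57BL/6J reference, and the CAST allele of the hybrid animals may differ.
Glul promoter: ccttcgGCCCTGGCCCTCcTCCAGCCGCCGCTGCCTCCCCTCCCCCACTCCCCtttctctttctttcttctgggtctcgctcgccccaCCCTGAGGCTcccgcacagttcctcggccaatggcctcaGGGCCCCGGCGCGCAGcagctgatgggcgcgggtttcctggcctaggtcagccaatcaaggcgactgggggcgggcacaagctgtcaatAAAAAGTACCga
Of the 228 bases shown, 91 and 99 lay in a footprint, and 82 of them in both animals. The longest protected run is rich in C and lies near the upstream end of the peak.

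The Bergmann glia genes differed among themselves. Fabp7, the brain fatty acid binding protein carried by radial glia and Bergmann glia, had 1 promoter peak with heights of 4.83 and 2.57, at percentiles 33.4 and 25.1. Hopx, a small homeodomain protein without DNA binding of its own, had heights of 1.77 and 1.64, at percentiles 20.2 and 19.2. Gdf10, a secreted factor of the TGF-beta family expressed by Bergmann glia, had only 0.553 and 0.405, at percentiles 8.13 and 4.29. Both promoters of Hopx were open in both animals: the one at 77095277 on chromosome 5 with the heights just given, and the upstream one at 77115121 with 1.54 and 1.16. At Gdf10, 43 and 0 bp around the start passed the stricter false discovery rate of 0.001, against 715 and 390 bp at the Hopx start at 77095277 and 281 and 296 bp at the first Fabp7 start. The order Fabp7, Hopx, Gdf10 was the same in both animals.

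The parts of the promoter peaks that lie before the transcribed bases are printed for Fabp7 (chr10:57784761-57784880, plus strand) and Hopx (chr5:77095278-77095400, minus strand) as the open Bergmann glia promoters, with bases of a footprint in both animals in capitals.
Fabp7 promoter: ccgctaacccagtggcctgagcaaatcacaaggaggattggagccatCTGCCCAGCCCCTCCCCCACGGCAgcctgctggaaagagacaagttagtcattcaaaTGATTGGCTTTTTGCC
Hopx promoter: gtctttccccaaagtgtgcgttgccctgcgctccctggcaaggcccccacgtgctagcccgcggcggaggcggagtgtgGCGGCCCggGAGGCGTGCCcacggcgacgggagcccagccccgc
At Fabp7, 40 of the 120 bases shown lay in a footprint in both animals, in 2 separate runs of which the last reaches the end of the stretch. At Hopx, 17 of the 123 bases shown did.

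The coupling, water and filament genes also had low promoter peaks. Gja1, encoding connexin 43, had its highest promoter peak at 0.726 and 0.573, percentiles 10.9 and 7.61, 299 and 309 bp into the gene from the start at 56378442 on chromosome 10. At its first start, 56377330, the highest peak within 1 kb was 0.309 and 0.316, and 0 bp passed a false discovery rate of 0.001 in either animal. Gjb6, encoding connexin 30, had 0.314 and 0.346, percentiles 2.76 and 3.14, the lowest of the 10 in replicate 1 and of the 9 with a peak in replicate 2. Aqp4 had 0.423 and 0.375, percentiles 5.32 and 3.74. Its single promoter peak had the same bounds in both animals and lay 97 bp inside the transcript Aqp4-201, which starts at 15403758 on chromosome 18. The upstream start at 15410982, shared by 5 protein-coding transcripts, had no peak and 0 bp at a false discovery rate of 0.05 in either animal.

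Gfap was the one gene without a promoter peak in both animals. At its coding starts, 102897131 and 102897200 on the minus strand of chromosome 11, replicate 1 had a peak of 0.515, at percentile 7.28, with 313 bp at a false discovery rate of 0.05 and 0 bp at 0.001. Replicate 2 had no peak there and 0 bp at 0.05. Replicate 2 also had fewer peaks in all, and whether its lower number of peaks bears on Gfap was not tested.

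Footprints inside the promoter windows were counted next. In replicate 1 all 10 genes had at least 1, against 65.4% of all protein-coding genes, and the number ran from 1 at Aqp4 and Gfap to 17 at Slc1a2. In replicate 2, 7 of 10 had at least 1, against 60.7% of all genes, with 0 at Gjb6, Aqp4 and Gfap and a maximum of 12 at Glul.

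Ranking within classes of CpG content left the median of the set close to where it was. Promoters were sorted into 5 equal classes of all protein-coding genes by observed over expected CpG, lowest first. Class 2 held Fabp7, Aqp4 and Gfap, class 3 held Slc1a2, Slc1a3 and Gjb6, and class 4 held Glul, Gdf10, Hopx and Gja1. Promoter peaks stood at 44.9% and 38.9% of genes in class 2, 89.8% and 85.6% in class 3 and 95.6% and 92.6% in class 4. Class 1, which held none of the 10, had them at 7.49% and 5.61% and lowers the share over all genes. Ranked only among accessible promoters of their own class, the 10 genes had a median percentile of 14.7 and 13.4. Glul, at 62.7 and 54.9, and Fabp7, at 67.0 and 54.0, stood above the middle of their class in both animals. Fabp7 therefore moved up from percentiles 33.4 and 25.1 among all promoters. The other 8 stayed below the middle in each animal that had a peak, from 38.1 and 33.5 at Slc1a2 down to 2.59 and 3.41 at Gjb6 and 3.87 and 2.18 at Gdf10.

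Outside promoters, each gene was described over its body and 50 kb on each side, where 107 and 94 peaks were found. Of these, 70 and 67 were distal, that is outside the promoter window of every protein-coding gene. The median density was 4.83 and 4.64 distal peaks per 100 kb, against 4.58 and 3.71 for all protein-coding genes. In the smaller peak list the order turned round: the mean of both animals was 2.11 per 100 kb for the 10 genes and 2.58 for all genes. Footprints were sparser at the glial genes, at 17.1 and 12.3 per 100 kb, than at all genes, with 22.0 and 17.0. That order also turned round in a narrower stretch: with 10000 bp on each side, the mean of both animals was 25.4 per 100 kb for the 10 genes and 21.0 for all genes. Distal peaks held a footprint about as often as elsewhere, at 78.6% and 73.1% of those near the glial genes and 78.0% and 72.4% of all distal peaks.

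The genes fell far apart in this measure. Gfap had 11 and 9 distal peaks, the 81.4th and 84.7th percentile of density among all genes, and Gdf10 had 10 and 10, at percentiles 77.7 and 88.1. Slc1a2 had the most by number, 15 and 11, over its longer stretch of 232126 bp. Slc1a3 had 12 and 11, Aqp4 7 and 9, Hopx 5 and 5, Gjb6 4 and 5, and Glul 3 and 2. Gja1 had 2 and 3, and Fabp7 had 1 and 2 with percentiles of 15.4 and 30.6. Gfap and Gdf10, which had among the lowest promoter peaks, had the densest distal peaks, while Fabp7 and Glul, with higher promoters, had few. Other genes broke this order. Gja1, with low promoter peaks, stood at density percentiles 19.8 and 34.7, and Slc1a2, second in promoter height, at 65.1 and 61.1. Not all of these peaks lie closest to the glial gene. At Gfap, 3 distal peaks in each animal had a Gfap start as the nearest protein-coding start, and 6 other protein-coding genes lie in the stretch. At Gdf10 it was again 3 in each animal.

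**Figure D2:**
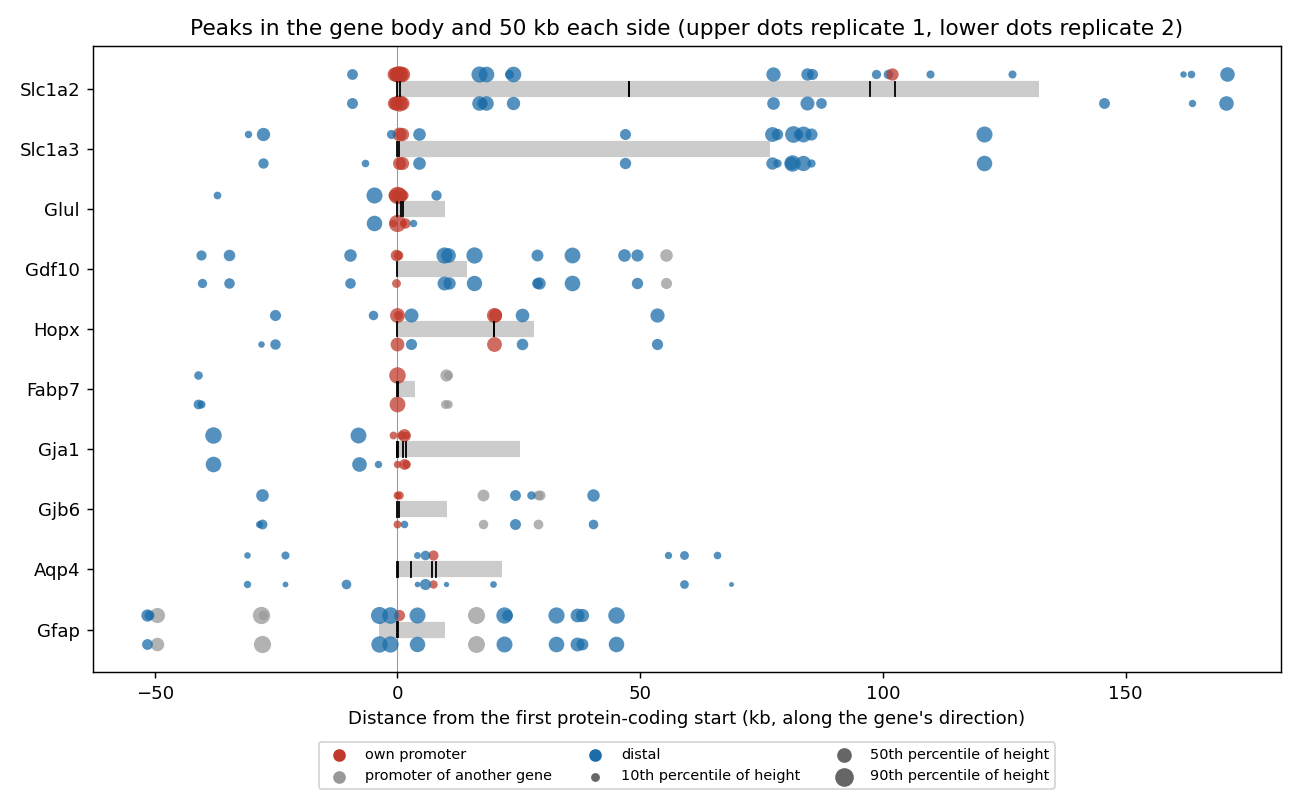
Peaks around the 10 genes by distance from the first protein-coding start in kb, along the gene's direction, with the gene body in grey and coding starts as black ticks. Dots above and below each bar are replicates 1 and 2, dot area grows with the percentile of height among all peaks, and Gfap shows large blue distal dots just upstream of its start where its own promoter shows 1 small red dot in replicate 1 and none in replicate 2.

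At several genes the highest distal peak was taller than the promoter. Among genes with a promoter peak this held for 5 of 10 glial genes in replicate 1, against 37.2% of all such genes, and for 5 of 9 in replicate 2, against 34.5%. In replicate 1 the 5 were Gfap, Gdf10, Gja1, Slc1a3 and Gjb6. In replicate 2 they were Gdf10, Gja1, Slc1a3, Gjb6 and Aqp4, and Gfap had no promoter peak to divide by. The ratio of distal to promoter height was 16.6 at Gfap in replicate 1. It was 6.82 and 5.80 at Gdf10, 6.23 and 4.05 at Gja1 and 6.09 and 4.09 at Slc1a3. Lower ratios of 2.29 and 1.71 were seen at Gjb6, and Aqp4 changed sides with 0.910 and 1.63. At the other 4 genes the promoter was the taller in both animals, with ratios of 0.621 and 0.439 at Slc1a2, 0.657 and 0.404 at Hopx, 0.234 and 0.270 at Glul and 0.0662 and 0.185 at Fabp7.

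**Figure D3:**
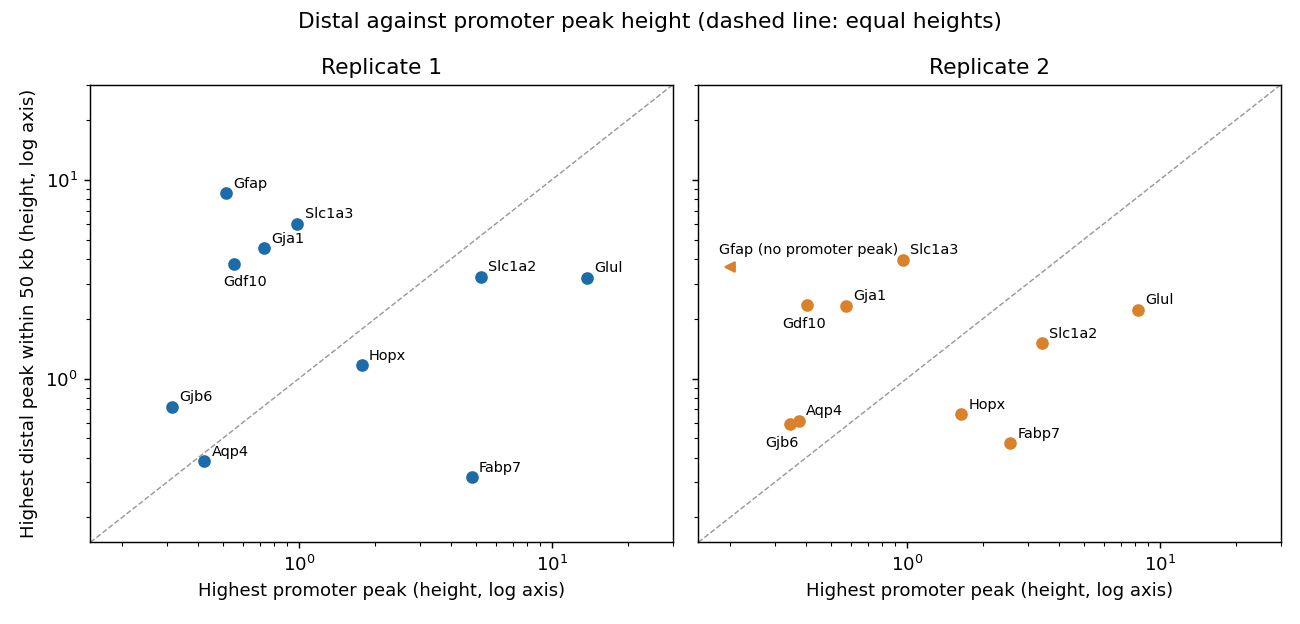
Height of the highest distal peak in the gene body and 50 kb on each side against the highest promoter peak (deposited signal, log axes), one dot per gene, with replicate 1 on the left and replicate 2 on the right. Gdf10, Gja1, Slc1a3 and Gjb6 lie above the dashed line of equal heights in both animals, and Gfap in replicate 2 is drawn at the left edge because it had no promoter peak.

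Of the distal peaks found in both animals, the one with the highest mean percentile lay at Gfap, with heights of 8.55 and 3.63, at percentiles 92.3 and 84.2 of all peaks. It covered chr11:102900901-102901100 in both animals, 3801 bp upstream of the nearest coding start, and overlaps the first base, at 102900912, of the non-coding transcript Gfap-203. A second one stood 1471 bp upstream of the coding start, inside an intron of Gfap-203, with heights of 4.82 and 3.47. Both are printed along the direction of Gfap (minus strand), as the most accessible places near a coding start with a low peak in replicate 1 and none in replicate 2, with bases of a footprint in both animals in capitals.
Gfap 3801 bp upstream: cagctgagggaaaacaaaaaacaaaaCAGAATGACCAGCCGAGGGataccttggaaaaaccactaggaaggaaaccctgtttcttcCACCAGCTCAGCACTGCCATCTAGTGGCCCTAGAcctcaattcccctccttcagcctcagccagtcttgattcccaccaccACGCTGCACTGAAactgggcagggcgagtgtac
Gfap 1471 bp upstream (chr11:102898561-102898780): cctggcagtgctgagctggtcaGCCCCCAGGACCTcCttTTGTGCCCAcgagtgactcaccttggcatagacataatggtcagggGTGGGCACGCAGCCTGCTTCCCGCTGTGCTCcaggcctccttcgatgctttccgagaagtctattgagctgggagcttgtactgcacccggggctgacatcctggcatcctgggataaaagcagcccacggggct
Footprints of both animals covered 66 of 200 bases in the farther peak and 54 of 220 in the nearer one.

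Slc1a3 and Gja1 had their tallest peaks far from the start. At Slc1a3 the peak was 81018 bp from the nearest start, beyond the 3′ end of the gene, with heights of 6.01 and 3.96 at percentiles 88.9 and 85.5 and 4 footprints in each animal. It stood below the Gfap peak in replicate 1 and above it in replicate 2. Further distal peaks lay close by in the same stretch, among them one 83118 bp from the start with 2.79 and 2.02. At Gja1 a peak 38049 bp upstream of the first start had heights of 4.53 and 2.32, and one about 8 kb upstream (8019 and 8009 bp) had 2.83 and 1.55. Both stand above the own promoter of Gja1, at 0.726 and 0.573. The far peaks of Slc1a3 (chr15:8629301-8629480, minus strand) and Gja1 (chr10:56339201-56339360, plus strand) are shown in the gene's direction, with the same use of capitals.
Slc1a3 distal peak: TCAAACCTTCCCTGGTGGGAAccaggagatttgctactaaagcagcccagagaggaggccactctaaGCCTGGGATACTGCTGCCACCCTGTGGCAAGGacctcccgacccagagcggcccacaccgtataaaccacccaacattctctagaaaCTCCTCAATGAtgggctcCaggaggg
Gja1 distal peak: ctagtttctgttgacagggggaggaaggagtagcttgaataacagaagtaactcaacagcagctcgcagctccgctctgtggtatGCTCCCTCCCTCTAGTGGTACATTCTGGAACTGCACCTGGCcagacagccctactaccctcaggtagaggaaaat
In Slc1a3 65 of 180 bases were protected in both animals, in several runs, and in Gja1 41 of 160 bases in 1 run.

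At the other genes the distal peaks with the highest mean percentile over both animals were lower. Gdf10 had one 15744 bp past its start with 3.77 and 2.05, whose nearest coding start belongs to Gdf2. Glul had one 4813 bp upstream with 3.22 and 2.22, nearest to the start of Teddm1a, and Slc1a2 one in an intron 16190 bp past its nearest start with 3.26 and 1.47. At Hopx it reached 1.17 and 0.622, at Gjb6 0.721 and 0.484, at Aqp4 0.385 and 0.612 and at Fabp7 0.320 and 0.474.

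The letters of a CTCF site, CCANNAGNNGGC on either strand, were in some of these distal peaks. CTCF is the zinc finger protein that bounds chromatin loops, and its sites commonly leave a clear DNase footprint. The distal peak with the highest mean percentile held these letters at Slc1a2, Glul, Gdf10 and Gfap, inside a footprint in both animals. Only exact letters were searched for, and at the other genes that peak did not hold them. At Slc1a3, 3 other peaks past the 3′ end of the gene held them inside a footprint in both animals. The peaks of Gja1 and Slc1a3 printed above each hold a stretch that differs from the letters in a single letter. Each of these stretches lay in a footprint of both animals. How often distal peaks of like height elsewhere in the genome hold the letters, or such near matches, was not counted. The 8 sites in distal peaks of both animals are shown on their own strand with 14 bases on each side and the matched letters in capitals.
Slc1a2 (chr2:102675462-102675473, plus strand): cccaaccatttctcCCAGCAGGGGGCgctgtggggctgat
Slc1a3 (chr15:8589938-8589949, minus strand): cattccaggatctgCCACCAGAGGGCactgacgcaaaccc
Slc1a3 (chr15:8627275-8627286, plus strand): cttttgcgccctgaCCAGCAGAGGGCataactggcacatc
Slc1a3 (chr15:8633563-8633574, minus strand): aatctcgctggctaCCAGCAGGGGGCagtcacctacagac
Glul (chr1:153895108-153895119, plus strand): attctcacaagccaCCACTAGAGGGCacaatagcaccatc
Gdf10 (chr14:33933084-33933095, minus strand): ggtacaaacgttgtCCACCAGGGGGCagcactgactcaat
Gdf10 (chr14:33939331-33939342, minus strand): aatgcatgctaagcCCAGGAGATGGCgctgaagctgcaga
Gfap (chr11:102900988-102900999, plus strand): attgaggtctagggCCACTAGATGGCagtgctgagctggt
The peaks over these 8 sites had heights between 1.51 and 8.55 in replicate 1, and between 0.790 and 3.63 in replicate 2. At Slc1a3 the 3 sites lie in peaks with 3.14 and 2.23, with 2.79 and 2.02, and with 1.51 and 0.790. Counted in the central 200 bp, the letters were in 9 of 70 and 9 of 67 distal peaks of the glial genes, 12.9% and 13.4%, and in 10.3% and 11.5% of all distal peaks. Within peak bounds, 8 of 8 and 9 of 9 such sites near the glial genes had their centre in a footprint, while 78.7% and 70.7% of such sites in all distal peaks did.

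Letters linked to astrocyte and to granule neuron regulators were counted in the same way, on both strands of the central 200 bp. The full palindrome of nuclear factor I, TGGCNNNNNGCCA, a family that promotes astrocyte genes, was in 1 of 70 and 2 of 67 distal peaks, 1.43% and 2.99%, against 4.82% and 4.32% of all distal peaks. None of these peaks was found in both animals. Its one-sided form, TTGGCA, was in 14 of 70 and 20 of 67 distal peaks, against 21.8% and 25.2% of all, and can lie inside the full site. The E-box CAGATGG, bound by proneural factors, was in 5.71% and 7.46%, against 14.1% and 16.9% of all distal peaks. The ZIC letters CAGCAGG were in 11.4% and 11.9%, against 15.7% and 15.7%. SOX letters, ACAATGG, were in 3 peaks of each animal, 4.29% and 4.48%, against 2.29% and 2.42%, and RBPJ letters, GTGGGAA, in 5 peaks of each, 7.14% and 7.46%, against 5.06% and 4.87%. With 70 and 67 peaks, 1 peak is worth more than 1 percentage point, so most of these differences rest on a few peaks.

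**Figure D4:**
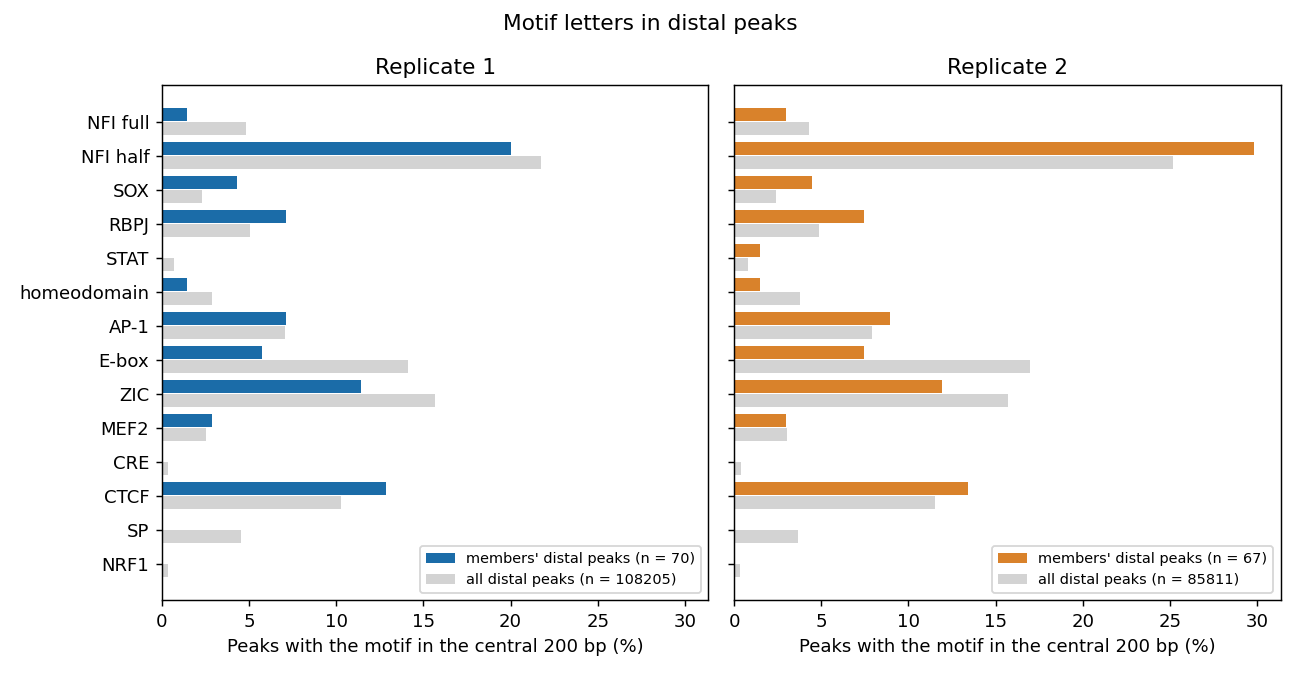
Share of distal peaks (%) with each set of motif letters in the central 200 bp, with the peaks of the 10 glial genes as the upper, coloured bar and all distal peaks of the same animal as the lower, grey bar (replicate 1 left, replicate 2 right). The E-box bars of the glial genes, at 5.71% and 7.46%, are shorter than those of all distal peaks, at 14.1% and 16.9%.

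Promoter sequences from RefSeq (build GRCm38.p6, 250 bases before to 50 after the start) matched 9 of the 10 genes, with 10 promoters in all, and were searched for the same letters. TATAAA placed 20 to 40 bp before the start was in 0 of the 10 and in 1.99% of all RefSeq promoters. The GC box GGGCGGG was in 2 of 10, at Glul and Gdf10, against 25.6% of all. STAT letters, TTCCNGGAA, stood at the start of Gfap from 2 bases before it, and were in 1.15% of all promoters. The peak printed above 1471 bp upstream of Gfap lies outside these sequences. It holds ttccgagaa, which differs from the STAT letters in a single letter and was not in a footprint of both animals. Exact letters of nuclear factor I, SOX, RBPJ and CTCF were in none of the 10, where all promoters had from 0.807% for the full nuclear factor I palindrome to 14.1% for its one-sided form. Near matches were not counted. One is in the Fabp7 stretch printed above, which ends with the fixed letters of the full palindrome except the last. These letters lay in a footprint of both animals. Not all 10 sequences are the open promoters described above. The one of Slc1a2 is at 102706438, with no peak within 1 kb. The one of Gja1, at 56377300, is by the first start, with peaks of only 0.309 and 0.316 within 1 kb.

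Related glial genes were read beside the 10. The share to set beside each count of promoter peaks in these lists is that of all protein-coding genes, 67.0% and 63.5%. With so few genes per list, a count near that share says little about the list. Each median percentile covers only the listed genes with a promoter peak in that animal. For glutamate, GABA and glutamine handling, 8 of 8 listed genes were open at the promoter in each animal, with a median percentile of 21.1 and 16.6. Glud1, encoding glutamate dehydrogenase, led with promoter heights of 22.4 and 12.4, ahead of the neutral amino acid transporter Slc1a4 with 10.4 and 8.79 and glycine decarboxylase Gldc with 2.16 and 1.43. Of the end-foot genes for potassium, water and dystroglycan, 9 and 8 of 9 had a peak, with medians of 22.0 and 25.8. Dystroglycan, Dag1, reached heights of 32.6 and 19.5, and the sodium pump subunit Atp1b2 12.5 and 7.68, both above the 0.423 and 0.375 of Aqp4.

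Other connexins also ranked low. A promoter peak was found at 5 and 4 of 6, with median percentiles of 5.08 and 8.08. The neuronal connexin Gjd2 had promoter heights of 0.986 and 0.563 and Gjb1 had 0.314 and 0.632, while Gja3 had none in either animal. Among filament and reactive genes, 7 of 9 had a peak in both animals, with medians of 16.8 and 10.8. Clusterin, Clu, had heights of 11.5 and 8.35, the aldolase Aldoc 7.96 and 6.49 and the filament gene Synm 9.17 and 5.38. The reactive astrocyte genes Serpina3n and Lcn2 had none in either animal.

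Genes of glial transcription factors were open at 10 of 10 promoters in each animal, with median percentiles of 23.6 and 19.97. The nuclear factor I genes led, with heights of 22.3 and 14.3 at Nfia, 11.9 and 7.83 at Nfib and 7.17 and 5.92 at Nfix. These factors also act in granule neurons. Of 10 further Bergmann glia genes, 9 and 7 had a peak, with medians of 8.13 and 13.9. The replicate 2 median leaves out genes that had a low peak in replicate 1 alone, so these medians do not compare the same genes. The highest of this list were Etv5, an ETS factor, with heights of 28.4 and 19.1, Sept4, a septin, with 10.7 and 5.59 and the AMPA receptor subunit Gria4 with 8.11 and 6.62. The protease inhibitor A2m had no promoter peak in either animal. The medians of all 6 lists stood below 50, the middle of all accessible promoters, as did that of the 10 genes.

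Of the peaks around the 10 genes, 72.0% in replicate 1 and 80.9% in replicate 2 shared 1 bp or more with a peak in the other replicate, against 65.8% and 80.4% of all peaks. For distal peaks the shares were 72.9% and 76.1%, against 62.0% and 78.0% of all distal peaks. At Gdf10, 9 of 10 distal peaks in each animal were shared, and at Gfap 9 of 11 and 9 of 9. Slc1a2 shared 8 of 15 and 8 of 11. The peaks named above at Gfap, Slc1a3, Gja1 and Gdf10 were present in both animals, so the picture of low promoters with taller distal peaks at these 4 genes was seen in each, apart from Gfap, whose promoter peak was seen in replicate 1 alone.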

How the data were processed

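Chromatin accessibility was measured by DNase-seq in cerebellum of 2 animals of 1 group. Per the labels, the authors' files are on mm10 (named also in the submitters' processing notes) and were made per animal without pooling. How reads were aligned and with what tools peaks and footprints were called is not given in the sources used here. The authors deposited for each animal 2 peak lists with a signal, the height of each peak, and the larger list was used here. A further deposited file holds false discovery rates, that is adjusted p-values, along the genome and lists those below 0.05. All 107 and 94 peaks around the glial genes touched a base at or below 0.05. Every footprint carries 1 deposited p-value entry, 0.01, so footprints were used by position. The files give no read counts, so the depth is unknown and no interval was computed.

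Genes were taken from GENCODE M21 as 1 entry per symbol. Peaks were placed by midpoint, or by any overlap for promoter windows, and ranked by height within an animal. All 10 genes are named. Of each companion list, the 3 genes with the highest mean percentile and those with no promoter peak in either animal are named, and of each gene the tallest distal peak by mean percentile in both animals. Some genes that the rule picks are not reported here. Other peaks that are named were chosen after their values were seen. The genes, companion lists and motifs were chosen with earlier results of these data known. Alternatives were the smaller list, other promoter windows, flanks and overlaps, a height minimum, equal numbers of peaks, and leaving out each animal. The scripts were tested on simulated data and used Python 3.11.15, numpy 2.4.6, pysam 0.24.0, samtools 1.23.1 and matplotlib 3.10.9.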

Additional observations from a re-analysis of the deposited data

How the results depend on the processing

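Values here are means of both animals. Of 20 alternative values for the main results, not counting values of a single animal, 11 moved by over 1 SD between animals, with a wider limit for the count of genes. The count of genes with a promoter peak was 7 with the smaller list and 5 with peaks above the median height, instead of 9.5. The median promoter percentile was 14.5 with the smaller list and 17.0 with windows of 2000 bp, against 12.8. Distal peaks per 100 kb, 4.73 as reported, were 2.11 with the smaller list, 6.23 with 10000 bp flanks, 8.06 in the gene body alone and 3.97 with equal numbers of peaks, where all genes had 2.58, 3.62, 0.653 and 3.76. Footprints per 100 kb were 25.4 with 10000 bp flanks and 20.4 in the gene body, against 14.7 as reported, and all genes had 21.0 and 13.5 against 19.5, so the order of glial and all genes turned round in both. The shared percentage was 62.0 when 50% of both peaks had to overlap, against 76.4. The nuclear factor I palindrome was in 0% of distal peaks found in both animals, against 2.21%. The cause of these moves was not tested. Leaving out each animal gave 9 to 10 genes with a promoter peak, median percentiles of 12.5 to 13.0, 4.64 to 4.83 distal peaks and 12.3 to 17.1 footprints per 100 kb, 72.0% to 80.9% shared peaks and 1.43% to 2.99% with the palindrome. With 2 animals a single-animal value always lies within 1 SD of the mean, so these ranges say nothing about stability. Of 64 alternative values for single genes, again without those of a single animal, 32 moved. No paired analysis was possible because both animals form 1 group. The unknown depth limits statements on low promoters such as Gfap: a missing peak there says only that none was called.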
